A study of Mus musculus with 9 samples.

Results

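The genes described here are 10 members of the Vgll, TEAD and Yap pathway: Vgll2, Vgll3, Tead1, Tead2, Tead4, Yap1, Wwtr1, Amotl2, Ccn1 (Cyr61) and Ccn2 (Ctgf). They were followed in cells sorted from mouse somites at embryonic day 9.5. The members were selected by name with earlier results from these same arrays in view, Vgll3 for its higher level with PAX3-FKHR, so the log2 values of the members in the 3 groups helped to choose them. Their differences are therefore a description, given with standard errors and 95% intervals and with no p-value, and for them the word called, defined below, only marks values past the limits used for all genes and is no evidence. All probe sets annotated to 1 of these genes alone were taken, which gave 20 of the 45037 probe sets tested on the array and 10 of the 18193 genes.

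TEAD proteins are DNA-binding factors that recognise the M-CAT element, a short sequence first described in muscle promoters, and they need a partner to activate transcription. The best known partners are Yap (Yap1) and Taz (Wwtr1), which the kinases of the Hippo pathway phosphorylate and keep out of the nucleus. Vestigial-like proteins (Vgll), named after the Drosophila wing selector vestigial, bind to a surface of TEAD that overlaps the one used by Yap, and Vgll2 and Vgll3 are expressed in the skeletal muscle lineage of vertebrates. Ccn1 and Ccn2, which encode secreted matricellular proteins, and Amotl2, which encodes an angiomotin-like protein that itself holds Yap in the cytoplasm, are widely used as readouts of Yap and Taz. Control of Yap and Taz acts largely on the proteins, which transcript levels do not measure.

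There were 3 groups of 3 arrays, all labelled as the hypaxial part of the dermomyotome in interlimb somites. The first, PAX3-FKHR/GFP, was of GFP+ cells in which 1 Pax3 allele encodes GFP and the other PAX3-FKHR, the rhabdomyosarcoma fusion of PAX3 with the activating part of FKHR (Foxo1), so that these cells have no intact Pax3 allele. The second, GFP/+, was of GFP+ cells with 1 GFP and 1 intact Pax3 allele. The third, GFP-, was of cells without fluorescence. By the methods, the fusion allele also carries IRES-nlacZ and was switched on by PGK-Cre, a transgene with a widely active promoter that the GFP/+ mothers carried, and whether GFP/+ embryos inherited it is not given in the sources used here. The Pax3 lines were kept on a mixed C57 BL6/DBA2 background, and embryos of 1 genotype were pooled before dissociation and sorting. The labels give no Pax3 genotype for the GFP- cells, and the methods name GFP/+ embryos in one place and wild-type embryos in another. One protocol label speaks of forelimb buds, whereas title, source and tissue of each sample give somites. The replicates are called biological in the methods, but each was made from pooled tissue, so the errors measure the spread between these samples only.

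Array medians lay between 4.63 and 4.68 on the log2 scale, and arrays of 1 group correlated at 0.996 to 0.998 over all probe sets. The labels were borne out for sorting: 10 of the 11 dermomyotome markers measured were called higher in GFP/+ than in GFP- cells, with En1 below the array median on all 9 arrays. The dermomyotome label was less clearly borne out for GFP- cells. Over the dermomyotome list their mean level was 4.84 to 4.89, beside 7.84 in each GFP/+ array. Myf5, Dmrt2, En1, Pax7, Lbx1 and Pax3 averaged 2.65, 3.26, 2.66, 4.10, 4.42 and 4.50 in GFP- cells, below the array medians. The other listed markers, Meox2, Sim1, Tcf15, Met and Meox1, averaged 5.54, 5.91, 6.12, 6.57 and 7.85, above them. List means of primitive erythroid (10.19 to 10.33), ectoderm (7.70 to 7.77) and lateral mesoderm markers (7.20 to 7.23) were higher in GFP- than in GFP/+ cells. The GFP- cells are therefore called by their sort alone. Pax3 itself, at its brightest probe set, averaged 8.29 ± 0.033 in PAX3-FKHR/GFP cells, 9.20 ± 0.125 in GFP/+ cells and 4.50 ± 0.307 in GFP- cells (SD, n = 3 each). The study states that PAX3-FKHR/GFP embryos do not transcribe the mouse Pax3 gene. Which transcript gave the signal of this probe set in those cells was not tested, so 8.29 is no level of intact Pax3. All values are whole-population measurements, in which fewer cells of a type and less RNA per cell cannot be told apart. A probe set or gene was called where limma gave an adjusted p under 0.05 over all 45037 probe sets and the log2 difference was at least 0.5 in size, which is 1.41-fold. Levels are log2 RMA values, and a level of one probe set cannot be set against that of another.

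The sequences at the starts of these genes are shown because the M-CAT element is what TEAD proteins bind. Promoter windows, 250 bases before to 50 after each start, came from RefSeq (GRCm38.p6) and were held for 7 of the 10 genes in 8 windows, with none for Tead1, Tead4 and Ccn2. They were searched on both strands for the M-CAT core CATTCC, which reads GGAATG on the other strand, and for no other motif. The core was found at 1 site each in 5 of the 7 genes, in capitals here with 20 bases on either side on the strand of the gene. Positions count back from the base before the start, which is -1.
Vgll3: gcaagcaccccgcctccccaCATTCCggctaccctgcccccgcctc
Yap1: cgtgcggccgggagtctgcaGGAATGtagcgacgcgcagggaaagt
Wwtr1: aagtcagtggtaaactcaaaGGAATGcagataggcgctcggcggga
Amotl2: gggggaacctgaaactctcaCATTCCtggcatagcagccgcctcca
Ccn1: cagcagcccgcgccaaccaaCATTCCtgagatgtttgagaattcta

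The Vgll3 stretch is chr16:65815106-65815151 on the plus strand, with the core starting at position -63. The Amotl2 stretch is chr9:102717719-102717764 on the plus strand, with the core starting at position -65. The Ccn1 stretch is chr3:145650063-145650108 on the minus strand, with the core starting at position -103. The Yap1 stretch is chr9:8004712-8004757 and the Wwtr1 stretch chr3:57576021-57576066, both on the minus strand, with the core starting at positions -141 and -136. The Wwtr1 site lies in both of its overlapping windows and is counted once. In Yap1, Wwtr1, Amotl2 and Ccn1 the core is part of the full 7-letter element CATTCCT, whereas in Vgll3 the next base differs. Over all genes with a window, 16.6% of 27025 held the core and 6.15% held the 7-letter element. The windows of Vgll2 and Tead2 held neither. A match is a match of letters only, and whether TEAD proteins bind there was not measured.

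Vgll3, a TEAD cofactor, was the member that differed most between groups. At its brightest probe set (1430596_s_at) the log2 values were 6.69, 7.08 and 7.05 in PAX3-FKHR/GFP cells, 5.63, 5.61 and 5.63 in GFP/+ cells, and 3.79, 3.53 and 3.50 in GFP- cells. The groups did not overlap and formed 3 steps. PAX3-FKHR/GFP cells were above GFP/+ cells by 1.31 ± 0.109 (log2 difference ± SE, interval 1.07 to 1.56), which is 2.49-fold, and GFP/+ cells were above GFP- cells by 2.02 ± 0.094 (1.81 to 2.23), which is 4.06-fold. Between PAX3-FKHR/GFP and GFP- cells the difference was 3.34 ± 0.123, or 10.1-fold. In GFP- cells the value lay below the array median on all 3 arrays, where differences in RMA values tend to be compressed.

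The other 2 Vgll3 probe sets had the same order of groups. Probe set 1453593_at measured 6.20, 6.51 and 6.66 in PAX3-FKHR/GFP cells, 5.07, 4.99 and 5.34 in GFP/+ cells and 3.23, 3.01 and 2.93 in GFP- cells. Its differences of 1.32 ± 0.132 and 2.08 ± 0.116 were close to those of the brightest one. Probe set 1455299_at was dimmer, with 4.94, 4.92 and 5.42 in PAX3-FKHR/GFP cells, 4.0, 3.98 and 3.83 in GFP/+ cells and 3.48, 2.95 and 3.0 in GFP- cells. It gave 1.15 ± 0.136 for PAX3-FKHR/GFP over GFP/+ but only 0.80 ± 0.132 for GFP/+ over GFP-, and 6 of its 9 values, all those outside PAX3-FKHR/GFP cells, were below the array median.

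Vgll2, the other muscle-lineage cofactor, had 2 levels rather than 3. Its single probe set (1436361_at) measured 7.86, 7.62 and 7.89 in PAX3-FKHR/GFP cells, 7.92, 7.78 and 7.62 in GFP/+ cells, and 6.76, 6.85 and 6.63 in GFP- cells. The 2 GFP+ groups overlapped, with a difference of 0.02 ± 0.102 whose interval of -0.21 to 0.24 does not reach the limit of 0.5. Both lay above GFP- cells, by 1.04 ± 0.094 for PAX3-FKHR/GFP and by 1.03 ± 0.090 for GFP/+ (2.06-fold and 2.04-fold). The remaining family members, Vgll1 and Vgll4, were called in none of the 3 comparisons, nor did either reach an unadjusted p under 0.05 in limma. Vgll4, which in mammals opposes Yap at TEAD, averaged 8.39 ± 0.029 in PAX3-FKHR/GFP cells, 8.34 ± 0.233 in GFP/+ cells and 8.32 ± 0.071 in GFP- cells, and Vgll1 was below the array median on every array.

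**Figure D1:**
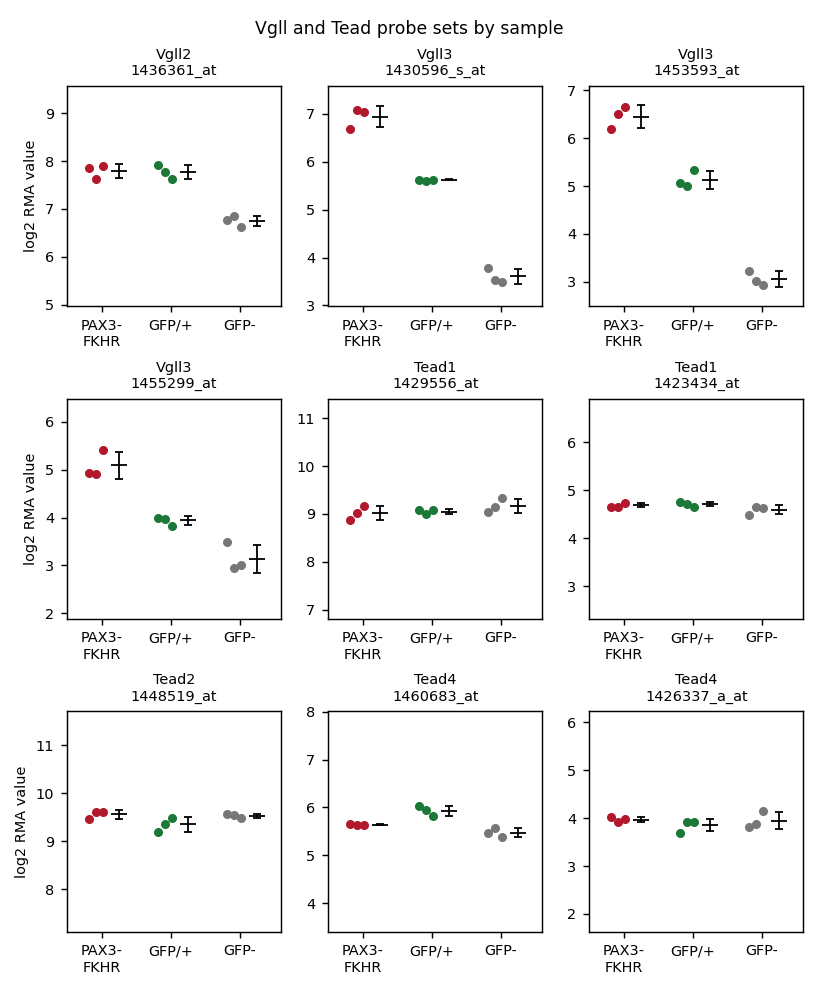
Log2 RMA value (y axis) of each Vgll and Tead probe set in the 3 samples (points) each of PAX3-FKHR/GFP cells, GFP/+ cells and GFP- cells, with mean and SD beside them. All panels span the same number of log2 units, and the 3 Vgll3 panels step down across the groups while Vgll2 is level between both GFP+ groups and the Tead panels are nearly flat.

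The DNA-binding partners themselves moved little. Tead1 measured 8.88, 9.01 and 9.17 in PAX3-FKHR/GFP cells, 9.08, 9.0 and 9.08 in GFP/+ cells, and 9.05, 9.14 and 9.34 in GFP- cells at its brightest probe set (1429556_at). All groups overlapped, and the 3 intervals together ran between -0.38 and 0.16. Tead2, the TEAD gene best known from early embryos, measured 9.46, 9.62 and 9.61 in PAX3-FKHR/GFP cells, 9.20, 9.36 and 9.49 in GFP/+ cells and 9.57, 9.54 and 9.49 in GFP- cells. The GFP/+ group had the lowest mean, with a difference of 0.21 ± 0.094 for PAX3-FKHR/GFP over GFP/+ and of -0.18 ± 0.074 for GFP/+ over GFP-, neither of them called. The dimmer Tead1 probe set (1423434_at) had means of 4.69, 4.71 and 4.59 in the same 3 groups, near the array medians.

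Tead4, the TEAD factor most tied to muscle differentiation, was highest in GFP/+ cells. Its brightest probe set (1460683_at) measured 5.65, 5.64 and 5.64 in PAX3-FKHR/GFP cells, 6.03, 5.95 and 5.83 in GFP/+ cells, and 5.46, 5.57 and 5.38 in GFP- cells. No 2 groups overlapped. PAX3-FKHR/GFP cells differed from GFP/+ cells by -0.29 ± 0.087 (interval -0.49 to -0.10), and GFP/+ from GFP- cells by 0.46 ± 0.086 (0.27 to 0.65), just inside the limit of 0.5, so neither was called. The second was called without GFP/+ replicate 3 (0.52) or without GFP- replicate 2 (0.51). The other Tead4 probe set (1426337_a_at) lay below the array median on all 9 arrays and had -0.10 ± 0.109 for GFP/+ over GFP-, so the order of groups rests on 1 probe set. Tead3, the TEAD gene outside the members, had differences of -0.11 ± 0.144, 0.01 ± 0.098 and -0.11 ± 0.154 for PAX3-FKHR/GFP over GFP/+, GFP/+ over GFP- and PAX3-FKHR/GFP over GFP-.

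Of the 2 coactivators, Yap1 was level and Wwtr1 was not. Yap1 measured 10.99, 11.10 and 11.21 in PAX3-FKHR/GFP cells, 11.08, 11.07 and 11.09 in GFP/+ cells, and 11.09, 11.09 and 11.12 in GFP- cells at its brightest probe set (1448363_at). The groups overlapped, and the 3 intervals together ran between -0.19 and 0.20. The second Yap1 probe set (1416487_a_at) gave 0.07 ± 0.090, 0.04 ± 0.068 and 0.11 ± 0.082 for PAX3-FKHR/GFP over GFP/+, GFP/+ over GFP- and PAX3-FKHR/GFP over GFP-.

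Wwtr1 (Taz) was higher in GFP+ than in GFP- cells. Its brightest probe set (1417818_at) measured 8.44, 8.55 and 8.77 in PAX3-FKHR/GFP cells, 8.92, 8.77 and 8.81 in GFP/+ cells, and 7.97, 7.98 and 7.90 in GFP- cells. GFP/+ exceeded GFP- by 0.88 ± 0.062 (1.84-fold), and its other 2 probe sets by 1.00 ± 0.073 and 1.01 ± 0.066. PAX3-FKHR/GFP exceeded GFP- by 0.64 to 0.66 over the 3 probe sets, all called. Between the GFP+ groups the order was the reverse of that of Vgll3, with PAX3-FKHR/GFP lower than GFP/+ by differences of -0.24 ± 0.097, -0.35 ± 0.090 and -0.36 ± 0.077. None reached the limit of 0.5. The 2 dimmer probe sets had no overlap between the groups, while in the brightest one PAX3-FKHR/GFP replicate 3, at 8.77, equalled the lowest GFP/+ array.

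**Figure D2:**
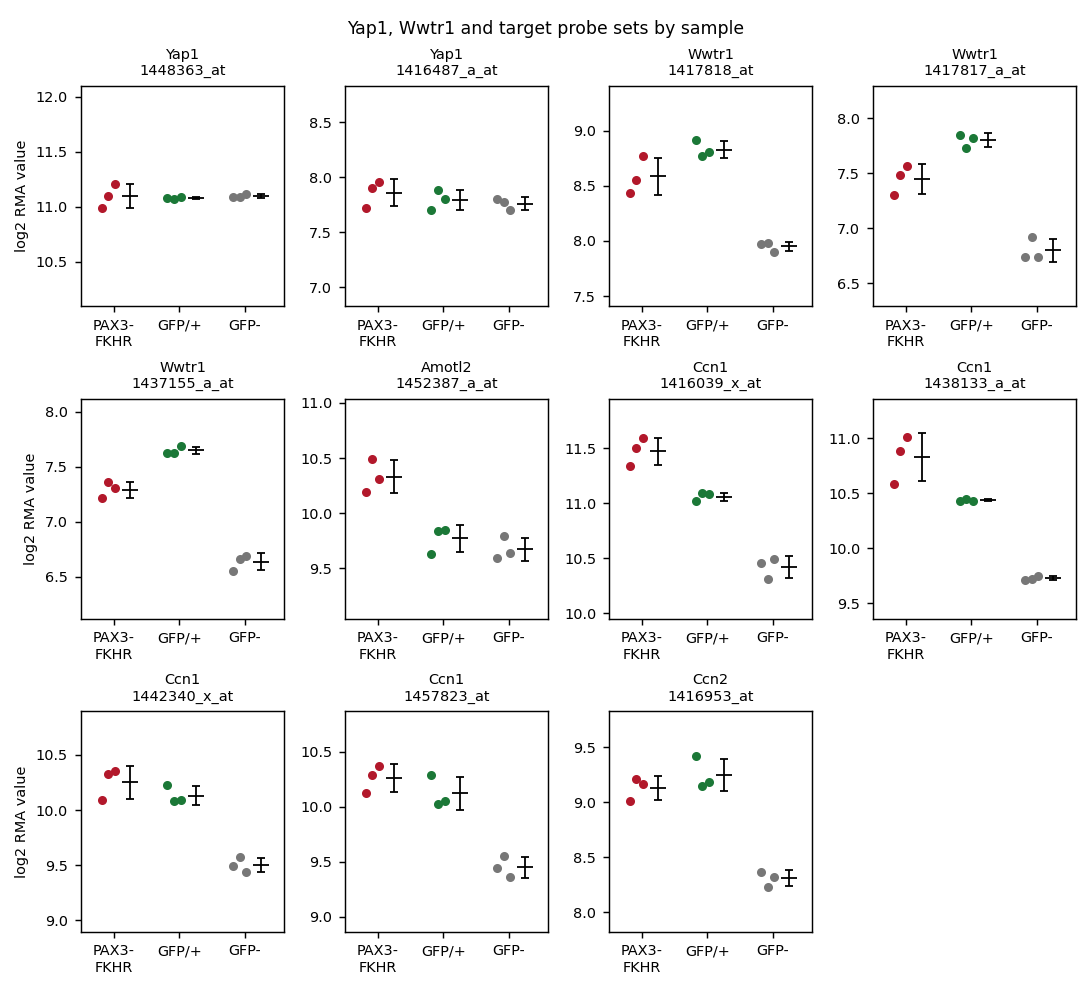
Log2 RMA value (y axis) of each probe set of Yap1, Wwtr1, Amotl2, Ccn1 and Ccn2 in the 3 samples (points) each of PAX3-FKHR/GFP cells, GFP/+ cells and GFP- cells, with mean and SD beside them. All panels span the same number of log2 units. Yap1 is level, Wwtr1 and Ccn2 are lower in GFP- cells, Amotl2 is higher in PAX3-FKHR/GFP cells, and Ccn1 has its lowest values in GFP- cells.

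The 3 target genes had 3 different patterns. Amotl2, at its single probe set (1452387_a_at), measured 10.19, 10.49 and 10.31 in PAX3-FKHR/GFP cells, 9.63, 9.84 and 9.85 in GFP/+ cells, and 9.59, 9.79 and 9.64 in GFP- cells. PAX3-FKHR/GFP cells stood above the other groups with no overlap, and GFP/+ and GFP- cells overlapped. The difference was 0.55 ± 0.101 (interval 0.33 to 0.78, 1.47-fold) over GFP/+ and 0.65 ± 0.095 over GFP-, against 0.10 ± 0.076 for GFP/+ over GFP-. The first call was close to its limits: omitting PAX3-FKHR/GFP replicate 2 (0.48) or replicate 3 (0.56), or any one GFP/+ array (0.48, 0.59 and 0.59 for replicates 1, 2 and 3), ended it, as did the local pooled error test (0.47), whereas omitting PAX3-FKHR/GFP replicate 1 did not.

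Ccn1 measured 11.34, 11.50 and 11.59 in PAX3-FKHR/GFP cells, 11.02, 11.09 and 11.08 in GFP/+ cells, and 10.46, 10.31 and 10.49 in GFP- cells at its brightest probe set (1416039_x_at). Like Vgll3 it formed 3 steps without overlap, but the upper step was small, at 0.41 ± 0.090 (0.21 to 0.61), and was not called. The lower step, GFP/+ over GFP-, was 0.64 ± 0.059 and was called in all 4 probe sets, at 0.64 to 0.71. The upper step depended on the probe set, with 0.39 ± 0.108 in 1438133_a_at but 0.12 ± 0.095 and 0.14 ± 0.101 in 1442340_x_at and 1457823_at, where both GFP+ groups overlapped. PAX3-FKHR/GFP over GFP- was called in all 4, at 0.76 to 1.10.

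Ccn2, the close relative of Ccn1, measured 9.01, 9.21 and 9.17 in PAX3-FKHR/GFP cells, 9.42, 9.15 and 9.18 in GFP/+ cells, and 8.37, 8.23 and 8.32 in GFP- cells. It had 2 levels, as Vgll2 had. The GFP+ groups overlapped, with a difference of -0.12 ± 0.095 (-0.33 to 0.09). PAX3-FKHR/GFP exceeded GFP- cells by 0.82 ± 0.081 and GFP/+ exceeded them by 0.94 ± 0.078 (1.77-fold and 1.92-fold).

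**Figure D3:**
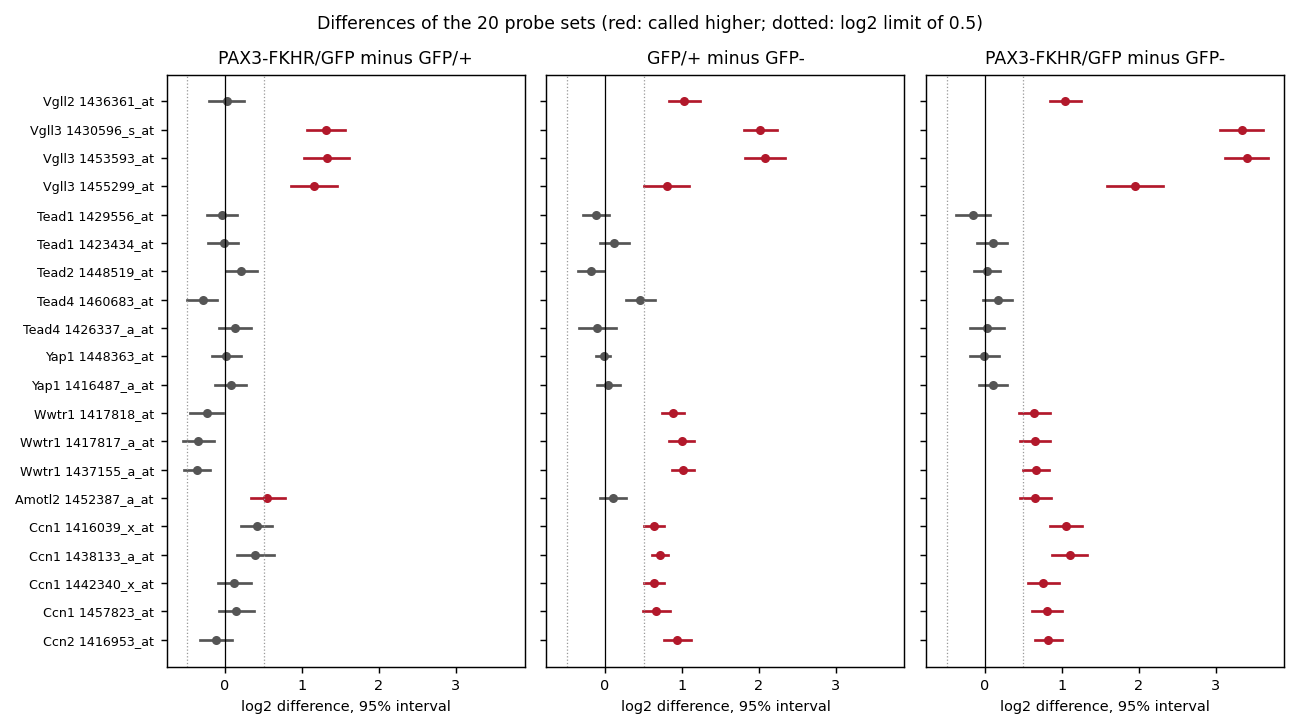
Log2 difference (x axis) with its 95% interval for each of the 20 probe sets (rows) in the 3 comparisons, with called differences in red and dotted lines at the limit of 0.5 either way. Only Vgll3 and Amotl2 are red in the first panel, and Tead and Yap1 rows lie near 0 in each panel except Tead4 1460683_at at 0.46 in the second.

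Counted over the members, PAX3-FKHR/GFP against GFP/+ called 4 of 20 probe sets higher, 0 lower and 16 neither, and by brightest probe set 2 of 10 genes, Vgll3 and Amotl2. Over the whole array 0.884% of probe sets were called higher and 0.473% lower, and 1.31% of genes higher and 0.715% lower. GFP/+ against GFP- called 12 of 20 probe sets and 5 of 10 genes higher (Vgll2, Vgll3, Wwtr1, Ccn1 and Ccn2) and none lower, beside 1.42% of probe sets higher and 3.24% lower, and 1.92% of genes higher and 5.05% lower. PAX3-FKHR/GFP against GFP- called 13 probe sets and 6 genes higher, the same 5 genes and Amotl2, and none lower, beside 1.99% of probe sets higher and 3.36% lower, and 2.63% of genes higher and 5.2% lower. Nothing is read from these member counts, since the same values served in choosing the genes. Each pair of comparisons shares the arrays of 1 group. The median difference of the 20 probe sets was 0.096, 0.654 and 0.656 in the 3 comparisons, beside -0.004, 0.023 and 0.018 over all probe sets.

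The rest of the pathway was read from lists written from general knowledge, but with earlier results of these data known. The adjusted p-values printed for listed genes are therefore a description and no independent evidence. Of 27 Hippo kinases, adaptors and other Yap regulators 25 were measured, and the others were not analysed here. For PAX3-FKHR/GFP against GFP/+ 1.31% of all genes were called higher and 0.715% lower. In this list 1 gene was called higher, 0 lower and 24 neither, and the median difference was 0.038. That gene was Frmd6 (Willin), a FERM-domain relative of the Drosophila Hippo regulator Expanded, which averaged 8.77 ± 0.085 in PAX3-FKHR/GFP cells and 8.16 ± 0.058 in GFP/+ cells (SD, n = 3 each). It rose by 0.61 ± 0.080 with an adjusted p of 0.0022 in limma, and its call held without any single replicate. In GFP/+ against GFP- cells 0 of 25 were called by limma at their brightest probe sets, beside 1.92% of all genes higher and 5.05% lower. The local pooled error test also called 0. At an unadjusted p under 0.05 in limma 2 were higher and 9 lower. The 5 that passed the adjusted p without the fold limit all had lower values in GFP/+, between -0.33 for Mob1a and -0.48 for Fat4. Fat4, an atypical cadherin, was called there without GFP/+ replicate 2 (-0.54), GFP/+ replicate 3 (-0.52) or GFP- replicate 1 (-0.51). Dimmer probe sets of Taok3 (-0.94 ± 0.130) and Wwc1 (-0.76 ± 0.115) were called lower in GFP/+ than in GFP- cells. A dimmer one of Rassf1 was called higher (0.53 ± 0.121).

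With PAX3-FKHR/GFP against GFP- cells Frmd6 was again higher (0.60 ± 0.075, adjusted p = 0.000265 in limma), and 2 regulators were lower, each at its brightest probe set. Over all genes 2.63% were called higher and 5.2% lower here. Amot, the angiomotin whose relative is the member Amotl2, fell by 0.60 on the log2 scale (± 0.091, adjusted p = 0.0012 in limma) with means of 9.97 ± 0.129 in PAX3-FKHR/GFP and 10.57 ± 0.101 in GFP- cells. Fat4 fell by 0.65 (± 0.085, adjusted p = 0.000393). Amotl2 and Amot thus differed from GFP- cells in opposite directions. The core kinase Stk4 (Mst1) and its scaffold Sav1 had differences of 0.05 ± 0.099 and 0.13 ± 0.086 for PAX3-FKHR/GFP over GFP/+, and neither was called in any comparison. Amot was not called with the local pooled error test (-0.49), and its 2 dimmer probe sets each differed by -0.02. For PAX3-FKHR/GFP over GFP- cells, dimmer probe sets of Taok3 (-1.13 ± 0.161) and Fat4 (-0.65 ± 0.157) were called lower. A dimmer one of Rassf1 was called higher (1.07 ± 0.128).

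Of 26 other genes reported as Yap and Taz targets in mammalian cells 25 were measured, with Areg not analysed here. In PAX3-FKHR/GFP against GFP/+ 1 was called higher, 1 lower and 23 neither at their brightest probe sets. Over all genes 1.31% were called higher and 0.715% lower. The median difference of the list was -0.034. Tgfb2, a secreted growth factor, averaged 7.85 ± 0.107 in PAX3-FKHR/GFP and 7.08 ± 0.045 in GFP/+ cells, a rise of 0.77 ± 0.083 (adjusted p = 0.000613 in limma), with 2 of its other 3 probe sets called too (0.80 and 0.79) and one at 0.16. Dock5, an activator of Rac, averaged 7.43 ± 0.084 in PAX3-FKHR/GFP and 8.05 ± 0.221 in GFP/+ cells, a difference of -0.62 ± 0.111 (adjusted p = 0.0166 in limma). Dock5 missed the call when any of PAX3-FKHR/GFP replicates 1 (-0.60), 2 (-0.60) and 3 (-0.67) or GFP/+ replicate 2 (-0.65) was left out, and its 2 dimmer probe sets, at -0.25 and -0.04, were not called. Thbs1 was not called at its brightest probe set (0.41 ± 0.090). Its dimmer probe set was called higher (0.75 ± 0.106, adjusted p = 0.00371 in limma). Myof and Ankrd1 were not called, at -0.06 ± 0.094 and -0.28 ± 0.096. Myof lay below the array median on all arrays, so low signal limits what can be read from it in each comparison. At an unadjusted p under 0.05 the list had 7 higher and 8 lower genes.

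Between GFP/+ and GFP- cells 2 targets were called higher, 6 lower and 17 neither, beside 1.92% of all genes higher and 5.05% lower. Dock5 rose by 1.59 ± 0.112 (adjusted p = 8.87e-06 in limma), and Nuak2, a kinase of the AMPK family, by 0.98 ± 0.093 (adjusted p = 7.94e-05). Tgm2, a transglutaminase, averaged 6.69 ± 0.115 in GFP/+ and 9.22 ± 0.130 in GFP- cells and fell by 2.53 (± 0.084, adjusted p = 3.71e-08). Ccn4 (Wisp1), of the same family as Ccn1 and Ccn2, fell by 1.05 (± 0.103, adjusted p = 9.83e-05), the opposite direction to both. Tgfb2 fell by 0.97, Foxf2, below the array median on all arrays and not called at its other probe set (0.04), by 0.90, and Ankrd1 and Igfbp3 by 0.60 and 0.54. Dimmer probe sets of Ankrd1 (-0.14), Igfbp3 (-0.29), Tgfb2 (-0.23), Dock5 (0.29) and Tgm2 (-0.10 and -0.03) were not called. The remaining probe sets of Tgfb2, Dock5, Tgm2 and Ccn4 were called in the direction given. The Ankrd1 call was lost without GFP/+ replicate 2 (-0.59) or 3 (-0.61) and without GFP- replicate 1 (-0.47) or 3 (-0.60), and that of Igfbp3 without GFP/+ replicate 3 (-0.49). Myof and Asap1 were not called, at -0.35 ± 0.101 and 0.01 ± 0.069.

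In PAX3-FKHR/GFP against GFP- cells 4 targets were called higher, 6 lower and 15 neither, beside 2.63% of all genes higher and 5.2% lower. The higher ones were Nuak2 (1.06 ± 0.085), Dock5 (0.97 ± 0.088), Gadd45a, a stress-response gene (0.60 ± 0.102), and Thbs1, encoding thrombospondin (0.52 ± 0.081). At its brightest probe set Thbs1 missed the call when PAX3-FKHR/GFP replicate 2 or GFP- replicate 1 was left out (0.49 each). Both Thbs1 there and Gadd45a missed it with the local pooled error test (0.48 and 0.49). The dimmer Thbs1 probe set was called higher too (0.85 ± 0.109, adjusted p = 0.000325 in limma). The lower ones were led by Tgm2 (-3.01 ± 0.086), Ccn4 (-1.02 ± 0.10), Foxf2 (-0.92 ± 0.132) and Ankrd1 (-0.88 ± 0.129). The largest adjusted p among these 8 genes was 0.00254, for Gadd45a, in limma. Myof and Asap1, at -0.41 ± 0.104 and -0.28 ± 0.076, were not called. Dimmer probe sets of Dock5 (0.25), Foxf2 (0.10) and Tgm2 (-0.07 and -0.10) were not called either.

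Of the pathway lists, the muscle genes listed as having M-CAT elements had the most calls in PAX3-FKHR/GFP against GFP/+ cells. Whether each of these genes holds the element was not checked here. The study had already reported Myog, myosins and troponins as lower with PAX3-FKHR in somites. All 12 were measured, of which Myog and Acta1 are also in the list of 8 muscle markers described below. In PAX3-FKHR/GFP against GFP/+ cells 0 were called higher, 8 lower and 4 neither, beside 1.31% of all genes higher and 0.715% lower. The median difference was -1.045, beside -0.001 over all genes. Myh7, the slow myosin heavy chain, averaged 4.66 ± 0.161 in PAX3-FKHR/GFP and 6.29 ± 0.088 in GFP/+ cells and fell by 1.64 (± 0.104, adjusted p = 1.74e-05 in limma). Tnnc1 and Acta1, slow troponin C and skeletal actin, fell by 1.55 each (adjusted p = 1.64e-05 and 8.95e-06), and Myog, the differentiation factor myogenin, fell by 1.23 (± 0.104, adjusted p = 0.000115). Myh6 and Ckm were not called, at -0.16 ± 0.105 and -0.07 ± 0.110. In PAX3-FKHR/GFP and GFP/+ cells Myh6 averaged 4.03 and 4.18 and Ckm 4.56 and 4.63, near or below the array medians.

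The same list was split between GFP/+ and GFP- cells, with 4 higher, 3 lower and 5 neither. Over all genes 1.92% were called higher and 5.05% lower. Myog rose by 4.66 ± 0.140 and Acta1 by 2.62 ± 0.087 (adjusted p = 1.73e-08 and 3.49e-08 in limma), as did Chrng and Tnnt3 by 0.69 and 0.67. The 3 lower genes were Myh6, the atrial myosin, Myh7 and the smooth muscle actin Acta2, which fell by 3.46 (± 0.097), 0.85 and 0.54. The Acta2 call was lost without GFP- replicate 1 and with the local pooled error test (-0.49 in both). Tnnt2 and Tnnc1, at 0.43 ± 0.115 and 0.42 ± 0.085, were not called. In PAX3-FKHR/GFP against GFP- cells 2.63% of all genes were called higher and 5.2% lower. Of this list 2 were higher, Myog by 3.43 ± 0.123 and Acta1 by 1.07 ± 0.090, 5 were lower and 5 neither. The lower ones were led by Myh6, Myh7, Acta2 and Tnnc1, at -3.62, -2.49, -1.73 and -1.13. Tnnt3 and Ckm, at -0.23 ± 0.085 and 0.15 ± 0.102, were not called, and both averaged below the array medians in these groups.

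**Figure D4:**
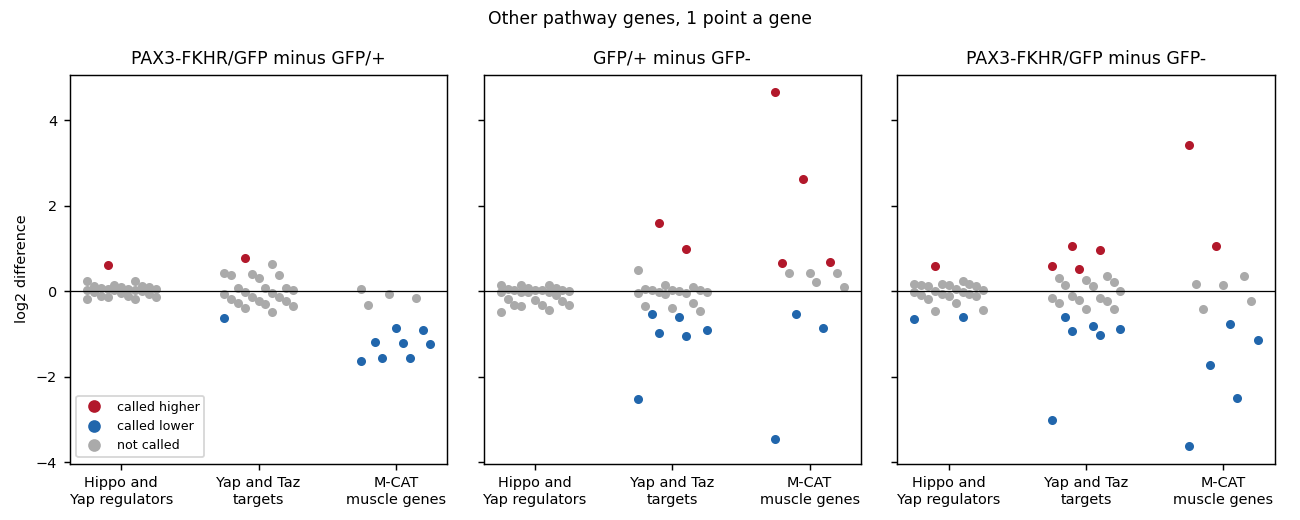
Log2 difference (y axis) of each measured gene in the 3 comparisons, with 1 point a gene at its brightest probe set. The lists are Hippo and Yap regulators, other Yap and Taz targets and M-CAT muscle genes. The regulators lie near 0 throughout, whereas 8 of the 12 M-CAT muscle genes are called lower with PAX3-FKHR in the first panel.

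Markers of other cell types moved with these comparisons, and their part in the results above was not tested. Between PAX3-FKHR/GFP and GFP/+ cells, 7 of 8 muscle markers were called lower (median difference -1.391), and their mean level was 6.32 to 6.50 in PAX3-FKHR/GFP arrays and 7.76 to 7.90 in GFP/+ arrays. Of 7 neural crest markers 1, Tfap2b, was called higher (0.59 ± 0.084, adjusted p = 0.00407 in limma), and the mean over the list was 8.68 to 8.95 in PAX3-FKHR/GFP and 8.49 to 8.56 in GFP/+ arrays, without overlap. Of 11 dermomyotome markers 5 were called higher (Met, Lbx1, Tcf15, Myf5 and Pax7) and 2 lower (Pax3 and Sim1), with a median difference of 0.533. Their mean level was 8.18 to 8.40 in PAX3-FKHR/GFP and 7.84 in each GFP/+ array. The study itself reports the same 5 as raised and the same 2 as lowered with PAX3-FKHR, and treats the 5 as candidate Pax3 targets. A response to the fusion and a change in cell types were not told apart here. Among sclerotome markers 1 was higher (Uncx) and 2 were lower, and among neural tube markers 1 was higher (Dbx1, 2.38 ± 0.091) and 1 lower. Tfap2b, Uncx and Dbx1 are also among the genes that the study reports as raised with PAX3-FKHR. The erythroid Hbb-y and the lateral mesoderm Prrx1 were each higher by 0.65, alone in their lists, and 0 of the 10 endothelial, 8 ectoderm and 7 leukocyte markers were called.

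Between GFP/+ and GFP- cells markers of many cell types differed. Whether this has a part in the differences of Vgll2, Vgll3, Wwtr1, Ccn1 and Ccn2 was not tested. Higher in GFP/+ cells were 6 of 7 neural crest markers (mean level 8.49 to 8.56 in GFP/+, 6.66 to 6.75 in GFP- arrays), 5 of 8 sclerotome markers (7.28 to 7.30 in GFP/+, 5.97 to 5.99 in GFP-) and 7 of 8 muscle markers. Lower in GFP/+ cells were all 7 primitive erythroid markers measured (5.91 to 6.0 in GFP/+, 10.19 to 10.33 in GFP-), 7 of 10 endothelial markers (5.42 to 5.50 in GFP/+, 6.22 to 6.27 in GFP-), 6 of 8 ectoderm markers (4.94 to 5.04 in GFP/+, 7.70 to 7.77 in GFP-) and 6 of 8 lateral mesoderm markers (5.15 to 5.16 in GFP/+, 7.20 to 7.23 in GFP-). Among the listed markers, Pecam1 in the endothelial list and Nkx3-2 and Scx in the sclerotome list were below the array median on all 9 arrays.

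The genes whose profiles were most like those of the members were found by the root mean square distance between gene-centred log2 values over the 9 arrays, where 0 means identical profiles. For Vgll3, whose own SD over the arrays was 1.46, the 3 closest were Sec1 (0.221), C1qtnf3 (0.234) and Cp (0.243), which encodes ceruloplasmin. C1qtnf3 averaged 8.11 in PAX3-FKHR/GFP, 6.53 in GFP/+ and 5.0 in GFP- cells, also in 3 steps. For Vgll2 (SD 0.53) they were Nuak2 (0.097), Sncaip (0.128) and Cnksr3 (0.135), so that the closest profile belonged to a gene of the target list. For Ccn1 (SD 0.47) they were Tcim (0.053), Fxyd6 (0.072) and Elk3 (0.078), and for Ccn2 (SD 0.46) Zfp703 (0.080), Septin6 (0.087) and Rflna (0.088). Among the members the closest pairs were Tead1 with Yap1 (0.092), both nearly level, and Ccn2 with Wwtr1 (0.112), both with their step between GFP+ and GFP- cells.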

How the data were processed

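RNA amplified in a two-cycle protocol was hybridized to Affymetrix mouse genome arrays. The authors deposited log2 values made with RMA, which corrects background, equalizes array distributions and summarizes each probe set. A change common to all transcripts of a group is thereby removed. Neither the RMA version nor the set of arrays normalized jointly is given in the sources used here. Without 64 Affymetrix controls, 45037 of 45101 probe sets remained. In the platform annotation 34945 had 1 gene symbol, 932 several and 9160 none, and a gene was read from its brightest probe set with 1 symbol.

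Each comparison was fitted with limma 3.58.1 in R 4.3.3 (lmFit, eBayes with intensity trend) on its 6 samples, with two-sided tests and p-values adjusted over all of them by Benjamini-Hochberg. The script was tested on simulated data. The study's absence calls were not used. Members and lists were chosen with earlier results of these data known. Named are all members, per list and comparison up to 4 called genes with the largest differences and the first 2 not called, and 3 genes most like Vgll2, Vgll3, Ccn1 and Ccn2. Beyond this rule Fat4 and Mob1a between GFP/+ and GFP- cells, and further called targets and M-CAT genes in the comparisons with GFP- cells, were named after their values were seen. So were the dimmer probe sets of listed genes, among them those of Taok3, Wwc1, Rassf1 and Thbs1, and Thbs1 itself in PAX3-FKHR/GFP against GFP/+ cells. Alternatives were the fit of all 9 arrays, no trend, the study's local pooled error test, a filter on dim probe sets, median centring, no fold limit, other probe set choices, the replicate block and each replicate left out. For the pathway lists these were added after seeing the data. Precision is limited by 3 arrays per group.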

Additional observations from a re-analysis of the deposited data

How the results depend on the processing

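The counts of member probe sets called stayed within 1.5 times those reported under every alternative, at 3 to 5 (4 reported) for PAX3-FKHR/GFP against GFP/+, 11 to 13 (12 reported) for GFP/+ against GFP- and 13 throughout for PAX3-FKHR/GFP against GFP-. Leaving out each replicate in turn gave 3 to 5, 12 to 13 and 13. No direction of a called value was reversed. Same-numbered samples deviated together at correlations between -0.096 and 0.105, so the numbers were not taken to pair the samples. With the replicate block 4, 12 and 13 member probe sets were called. The block left the counts of the regulators (1, 0 and 3), targets (2, 8 and 10) and M-CAT genes (8, 7 and 7) as they were.

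Calls of Amotl2 and Tead4 changed: Amotl2 was lost and Tead4 gained under the settings given with them above. Without the fold limit Tead4 (0.46) was called too, and 5 instead of 0 Hippo regulators were called for GFP/+ against GFP- and 5 instead of 3 for PAX3-FKHR/GFP against GFP-. Leaving out a replicate gave 0 to 1 regulators for GFP/+ against GFP- and 1 to 3 targets (2 reported) for PAX3-FKHR/GFP against GFP/+. Over all probe sets 611 were called for PAX3-FKHR/GFP against GFP/+, but 358 without PAX3-FKHR/GFP replicate 2, and 383 and 386 without GFP/+ replicates 2 and 3. Without the fold limit 3947 instead of 2095 were called for GFP/+ against GFP-, and 4029 instead of 2411 for PAX3-FKHR/GFP against GFP-. The causes were not tested. Vgll3 in GFP- cells and 1 Tead4 probe set lay below the array median, where low signal limits what can be read.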
